A study of Mus musculus with 6 samples.

Results

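The 9 genes described here carry vitamin A or make and break down its active form in the mouse hippocampus: Rbp4, Ttr, Stra6, Crabp2, Rdh5, Rdh10, Aldh1a1, Aldh1a2 and Cyp26b1. They were picked by symbol among 55471 genes of a deposited comparison, and each matched 1 row. They were picked with the results of that comparison known, so their values are given as a description and no test of them as a list was made. The comparison sets 3 wild-type hippocampus samples from mice given saline against 3 from wild-type mice given Visudyne, a preparation of the photosensitizer verteporfin. All 6 samples were collected 24 hours after cerebral ischemia and reperfusion, a stroke model, so that both groups carry the injury. The series title gives the purpose of the treatment as ablation of meningeal lymphatic vessels. Whether the samples are separate animals is not in the labels, so p-values measure the spread between these samples.

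Retinol travels in the blood bound to RBP4, which is itself held by transthyretin, and enters cells through the receptor STRA6. Inside the cell, retinol dehydrogenases convert retinol to retinal, and retinaldehyde dehydrogenases of the ALDH1A family convert retinal to retinoic acid. CRABP2 hands retinoic acid to nuclear receptors, and enzymes of the CYP26 family degrade it. In the mouse brain, transthyretin is a hallmark of choroid plexus epithelium, and Aldh1a2 is known as an enzyme of the meninges.

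The authors' deposited table holds a mean normalized count over the 6 libraries, a fold change and its error, a p and an adjusted p, with no value per library. Neither sign of the fold change is tied to a treatment there. Because every mean is a sum of whole reads, each weighted by its library, the reads of single libraries could be worked back from the 15 printed digits of the mean. Where several sets of reads gave the same mean, the set was kept that also gave the deposited p, fold change and error under a refitted model. The libraries are called N1, N2 and N3 on the negative side of the fold change, and P1, P2 and P3 on the positive side. They cannot be tied to sample names or to a treatment, so "higher on the positive side" does not say higher with saline or with Visudyne.

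Reads per library were resolved for 7 of the 9 genes. The mean of Crabp2 alone fixed 1 set of reads. For the other resolved genes, between 105 (Cyp26b1) and 1627 (Rdh10) sets shared the mean, and 1 set matched the deposited statistics in each case. For Ttr, with a mean of 33085, and Aldh1a1, with a mean of 1013, the reads could not be resolved. As a check, the means of 2312 of 2313 tested genes with a mean of 20 to 60 fixed a single set of reads without use of any p. The p computed from those reads differed from the deposited p by a median of 0.00288%. The tolerances of the match were loosened after a first pass in which Stra6, Aldh1a2 and some choroid plexus markers matched no set. For Stra6 the tolerance on the shrunken log2 fold change, 0.0001, was larger than its deposited size (−7.57e-05). Its fold change therefore constrained the choice only weakly.

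**Figure D1:**
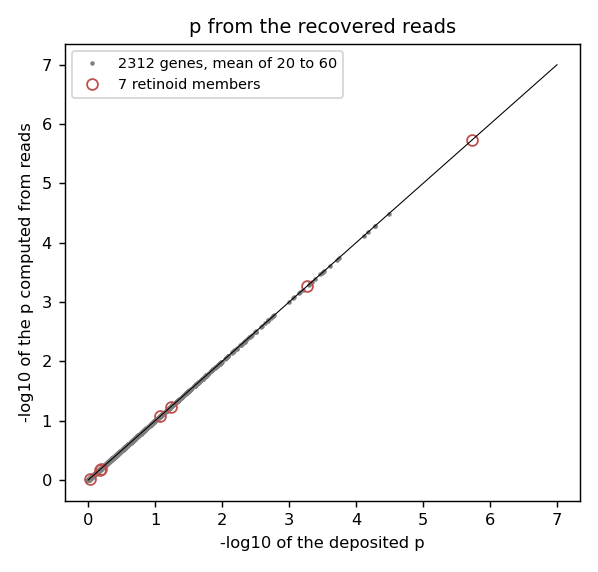
Each point is a gene, with the −log10 of the p in the authors' deposited table on the x axis and the −log10 of the p computed from the recovered reads on the y axis. Grey points are the 2312 genes whose reads were fixed by the mean alone and circles are the 7 resolved retinoid genes, for which, Crabp2 apart, the deposited p helped choose the reads; the line marks equal values.

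The size factors of the libraries, which scale with depth, ran from 0.584 in P3 to 1.52 in N1, so P3 and N3 (0.754) carry the largest counting error. Markers of hippocampal neurons were present, with mean normalized counts of 2333 for Prox1 and 5804 for Neurod6. P2 stood apart. The summed normalized count of the 11 resolved choroid plexus markers of 16 was 673, 2189 and 391 in N1 to N3, and 2033, 4685 and 716 in P1 to P3. For the 12 resolved meningeal fibroblast markers of 16 it was 961, 1503 and 1181 on the negative side, and 2084, 3806 and 1351 on the positive side. P2 was the highest library for 10 of these 11 choroid plexus markers and for all 12 meningeal ones. It was so for 677 of the 2312 genes with a mean of 20 to 60 (29.3%). Most of the markers had means above that range, and the lists were chosen with earlier results known. In bulk tissue, fewer cells of a type and less RNA per cell cannot be told apart. The ratios of the resolved genes of the 9 are therefore also given without P2. These ratios keep N2, so only the positive side loses its highest library.

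Of the 9 genes, 1 (Rbp4) had an adjusted p under 0.05 in the authors' deposited table, where 61 of 18603 tested genes did (0.328%), 34 of them positive (0.183%). At an unadjusted p under 0.05 there were 2, Rbp4 and Rdh5, both positive, where 6.81% of tested genes passed in either direction and 3.92% on the positive side. The mean of Rbp4 was about 2-fold higher on the positive side, and every positive-side library lay above every negative-side one. Rdh5 had the largest ratio among the resolved genes but spread widely, with P2 far above the rest. Aldh1a2 and Crabp2 were higher on average on the positive side with overlapping libraries, and Rdh10, Cyp26b1 and Stra6 had similar means on both sides. Ttr was at the highest level by far, and its fold change, given below, was worked back through a prior fitted to the deposited errors. The libraries of the sides did not overlap for 1 of the 7 resolved genes (Rbp4). They did not overlap for 358 of 2312 genes with a mean of 20 to 60 (15.5%). Of these, 197 (8.52% of the 2312) were higher on the positive side, as Rbp4 was. Among the 7, Crabp2 alone has a mean in that range, and the others run from 177 (Rbp4) to 295 (Rdh10). The shares are therefore not those of genes at their level.

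Promoter windows of Rbp4 and Rdh5, which had the largest ratios among the 7 resolved genes, are shown first, since retinoic acid receptors are known to bind repeats of a short hexamer and retinoid genes are among their classical targets. The sequences are those of RefSeq on GRCm38.p6, covering 250 bases before to 50 bases after an annotated start; the authors' own build is unknown here. Capitals mark a match to the consensus AGGTCA or to a variant, namely AGTTCA, the second variant GGGTCA, or the third variant GGTTCA, on either strand. Rbp4 has 2 annotated windows, at chr19:38125272-38125571 and chr19:38124762-38125061, both on the minus strand, and Rdh5 has 1, at chr10:128919248-128919547 on the minus strand.
Rbp4 window 1: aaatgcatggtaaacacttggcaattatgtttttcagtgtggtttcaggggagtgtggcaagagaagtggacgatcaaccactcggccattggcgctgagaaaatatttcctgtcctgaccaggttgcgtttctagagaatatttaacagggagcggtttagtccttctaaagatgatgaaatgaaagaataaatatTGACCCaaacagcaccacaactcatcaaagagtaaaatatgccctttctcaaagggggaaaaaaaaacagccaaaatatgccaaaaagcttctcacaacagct
Rbp4 window 2: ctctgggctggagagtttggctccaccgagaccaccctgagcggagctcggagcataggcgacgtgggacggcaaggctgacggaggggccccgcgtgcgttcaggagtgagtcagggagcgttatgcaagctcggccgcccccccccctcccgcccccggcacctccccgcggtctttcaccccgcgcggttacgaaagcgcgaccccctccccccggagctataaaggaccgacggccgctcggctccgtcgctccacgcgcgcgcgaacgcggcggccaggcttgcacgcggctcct
Rdh5 window: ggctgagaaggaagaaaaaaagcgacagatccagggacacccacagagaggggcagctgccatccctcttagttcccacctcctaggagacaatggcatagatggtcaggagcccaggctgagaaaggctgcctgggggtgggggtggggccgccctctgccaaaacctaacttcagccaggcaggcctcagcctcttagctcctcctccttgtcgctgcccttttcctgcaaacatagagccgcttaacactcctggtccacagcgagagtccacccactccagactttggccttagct
Rbp4 window 1 holds 1 match, read on the opposite strand, and the other windows shown hold none. Rbp4 window 2 and the Rdh5 window differ in base composition from window 1, with 72% and 58.3% of G and C against 40.7%. Ttr was not searched. Of the other 8 genes, 6 had a window, and 3 of their 11 windows held a match. Among all 32851 windows of this length, 43.7% held at least 1 match. A pair of matches in the same orientation with a spacer of 1, 2 or 5 bases was found in 0 of the 11 windows and in 0.588% of all windows. These matches describe letters and are not evidence of binding.

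Rbp4 encodes the retinol carrier of plasma. Its normalized counts were 135, 110 and 107 in N1, N2 and N3, and 241, 256 and 214 in P1, P2 and P3. All 3 libraries of the positive side lay above all 3 of the negative side, and the shallow library P3 was not apart from its side. The means were 237 ± 21.2 (SD, n = 3) on the positive side and 118 ± 15.2 (SD, n = 3) on the negative side. The unshrunken log2 fold change fitted to the reads was 1.01 ± 0.21 (SE). In the authors' deposited table its shrunken log2 fold change was 0.91 ± 0.22 and its adjusted p 0.00282. Leaving out each library in turn moved the log2 ratio of the side means between 0.95 and 1.12, and without P2 it was 0.95. P2 was 1.13 times the mean of P1 and P3 for Rbp4, while it was 3.41 times for the summed choroid plexus markers and 2.22 times for the meningeal ones. Single markers varied, from 0.94 (Sostdc1) to 8.51 (Aqp1) for choroid plexus and from 1.23 (Foxc1) to 4.96 (Igf2) for the meninges. The sides of Foxc1 did not overlap either.

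Ttr encodes transthyretin, the carrier of RBP4 and of thyroxine. Its mean normalized count of 33085 was the 51st highest of all genes. Per kilobase of annotated exon this is 27897 normalized counts, against 205 for Aldh1a1, the next of the 9 genes, and 132 for Rbp4. The log2 fold change worked back from the deposited values was 1.72 ± 1.22 (SE), and the adjusted p in the authors' deposited table was 0.885. That fold change rests on the width of the authors' prior, which was fitted to the deposited errors of genes with small fold changes. With a prior set 0.5 times as wide, the fold change of Ttr was 0.43. With one set 2 times as wide the calculation returned 0.000741 ± 0.000523 (SE), about the deposited shrunken value. That setting therefore gave no usable unshrunken value for Ttr. Its level per library could not be resolved, so its value without P2 could not be had. The fold change of Ttr and its error lay within the range of those of choroid plexus genes. Worked back in the same way, Aqp1, a water channel of that epithelium, had 2.53 ± 1.38 (SE). Cldn2, a tight junction gene, had 2.31 ± 1.11 (SE), while Kl had 0.64 and Sostdc1 had −0.02. Fitted to the reads, the values were lower for Aqp1 (2.16) and Cldn2 (2.08). For choroid plexus markers with both values, the ratio of worked-back to fitted ran from 0.98 to 1.17. Without resolved reads, the Ttr value could not be checked in this way. Aqp1 had normalized counts of 67.9, 89.9 and 31.8 in N1 to N3, and 135, 689 and 27.4 in P1 to P3. Of the 16 choroid plexus markers 15 were positive and 0 had an adjusted p under 0.05 (1 had an unadjusted p under 0.05, Cldn2), with a median log2 fold change of 1.34.

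**Figure D2:**
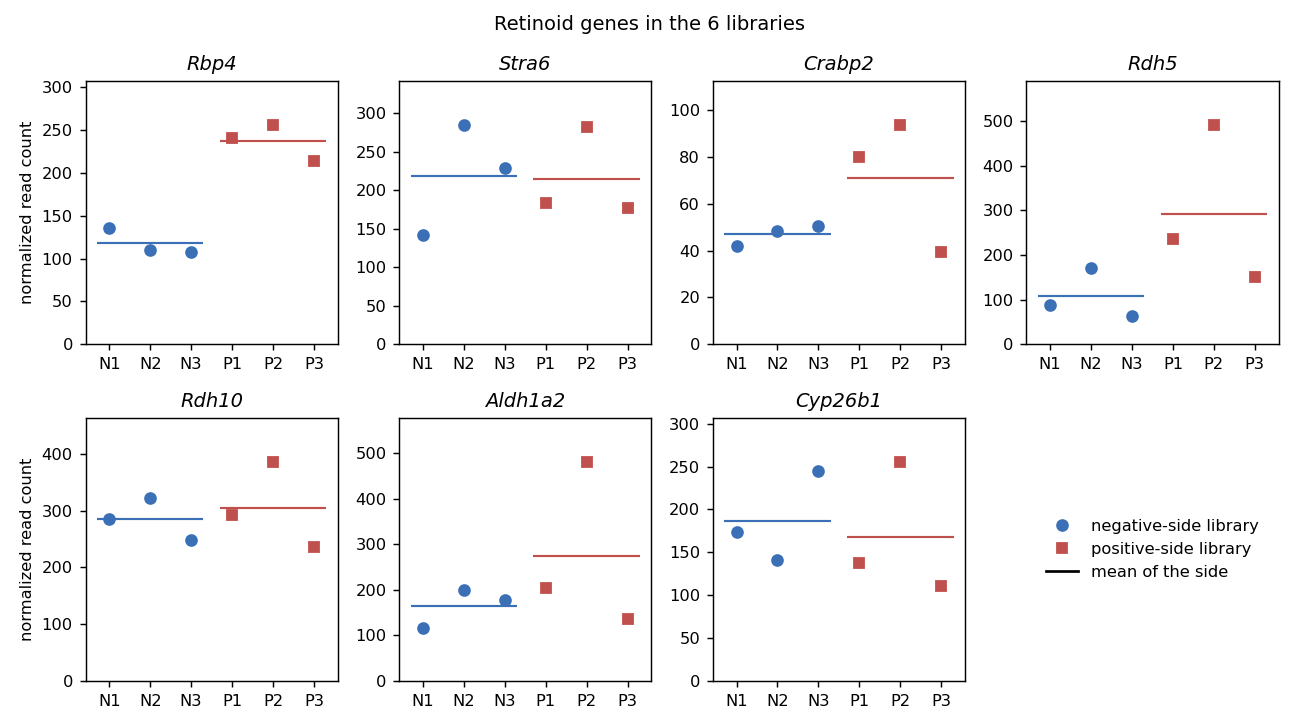
Each panel plots, for 1 gene, the normalized read count (y axis, from 0) in the 6 libraries (x axis), with circles for the negative side, squares for the positive side and a line at the mean of each side. For Rbp4 the 3 positive-side libraries sit between 214 and 256, all above the negative side, whereas for Rdh5 and Aldh1a2 P2 stands far above the other libraries.

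Stra6 encodes the cell-surface receptor through which RBP4-bound retinol is taken up. Its normalized counts were 141, 285 and 228 in N1, N2 and N3, and 184, 282 and 176 in P1, P2 and P3. N2 was the highest library, closely followed by P2, and the sides overlapped throughout. The means were 214 ± 59.2 (SD, n = 3) and 218 ± 72.3 (SD, n = 3) on the positive and negative sides. The log2 fold change fitted to the reads was −0.02 ± 0.29 (SE), and without P2 the log2 ratio of the means was −0.27. In the authors' deposited table the adjusted p of Stra6 was 0.999. The carrier and the receptor thus had unlike ratios, but the difference between them was not tested.

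Crabp2 encodes a retinoic acid binding protein of the cytoplasm that delivers its ligand to the nucleus. Its normalized counts were 42.2, 48.2 and 50.4 in N1, N2 and N3, and 80.2, 93.8 and 39.4 in P1, P2 and P3. P1 and P2 lay above every negative-side library and P3 lay below them all. P3 held 23 reads of this gene, the smallest number for any resolved member. The log2 fold change fitted to the reads was 0.63 ± 0.36 (SE), and the log2 ratio of the means went from 0.59 to 0.35 without P2. In the authors' deposited table the adjusted p was 0.817.

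Rdh5 encodes a dehydrogenase known for making 11-cis-retinal in the pigment epithelium of the eye. Its normalized counts were 88.3, 170 and 62.3 in N1, N2 and N3, and 236, 491 and 151 in P1, P2 and P3. P2 was 2.54 times the mean of P1 and P3, and the lowest positive-side library, P3, lay below N2. The means were 292 ± 177 (SD, n = 3) on the positive side and 107 ± 56.2 (SD, n = 3) on the negative side. The log2 fold change fitted to the reads was 1.45 ± 0.42 (SE). In the authors' deposited table the shrunken log2 fold change of Rdh5 was 1.15 ± 0.49 and its adjusted p was 0.0909, past a threshold of 0.1 (116 of 18603 genes, 0.624%) and not past 0.05. Without P2 the log2 ratio of the means fell from 1.45 to 0.85, and without N2 it was 1.95. Within each side the order of the libraries for Rdh5, N2 over N1 over N3 and P2 over P1 over P3, was the order of the summed choroid plexus markers. Folr1, a folate receptor of that epithelium, kept the same order, at 36.3, 117 and 13.3 in N1 to N3 and 80.2, 342 and 39.4 in P1 to P3. The order was not particular to Rdh5: Rdh10 had it too, with a log2 fold change of 0.10 ± 0.22 (SE). How much of the Rdh5 ratio goes with choroid plexus markers was not tested. In the GENCODE annotation of GRCm38, Rdh5 shares 720 exon bases on the same strand with Bloc1s1, so reads there may be split or lost. Bloc1s1 itself had a mean normalized count of 112 and an unadjusted p of 0.951 in the authors' deposited table.

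**Figure D3:**
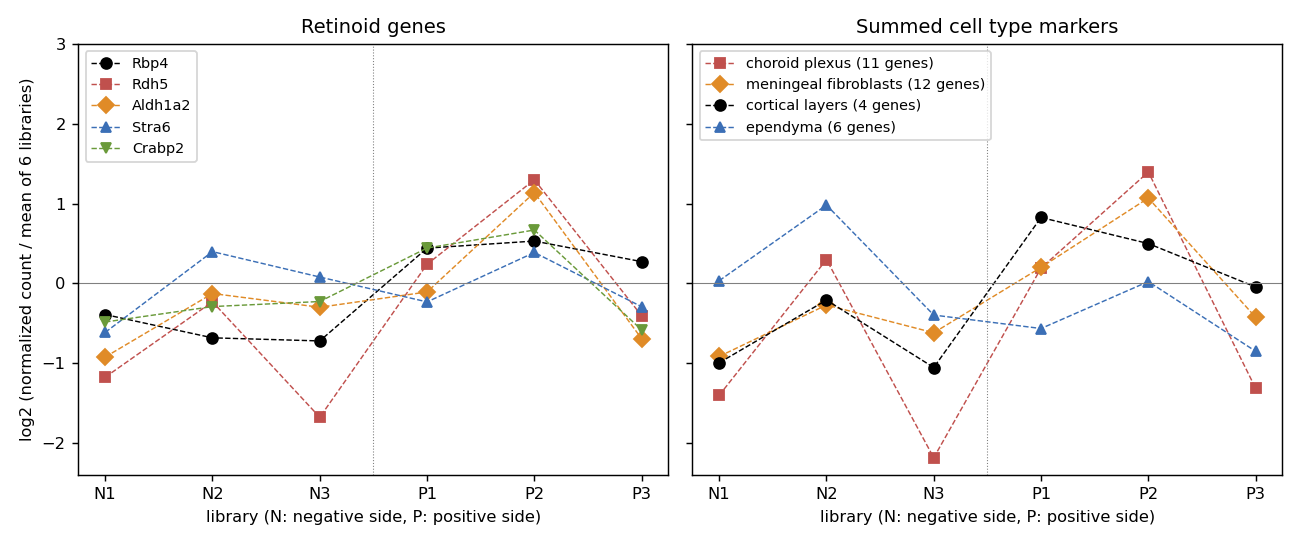
The left panel plots log2 of the normalized count over the mean of the 6 libraries (y axis) for 5 retinoid genes in each library (x axis), and the right panel plots the same for the summed markers of 4 cell types; dashed lines join the libraries only to guide the eye. Rdh5 and Aldh1a2 peak in P2, as the choroid plexus and meningeal sums do, while Rbp4 is at like levels in P1, P2 and P3.

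Rdh10 encodes the dehydrogenase that supplies most retinal for retinoic acid synthesis in the mouse embryo. Its normalized counts were 286, 322 and 248 in N1, N2 and N3, and 293, 387 and 236 in P1, P2 and P3. The sides overlapped and P2 was the highest library, at 1.46 times the mean of P1 and P3. The log2 fold change fitted to the reads was 0.10 ± 0.22 (SE), and without P2 the log2 ratio of the means was −0.11. The adjusted p of Rdh10 in the authors' deposited table was 0.983.

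Aldh1a1, Aldh1a2 and Aldh1a3 encode the enzymes that oxidize retinal to retinoic acid. Aldh1a1 was known only by its mean of 1013, with a log2 fold change worked back from the deposited values of 0.06 ± 0.19 (SE). Its adjusted p in the authors' deposited table was 0.994. For Aldh1a2, the normalized counts were 115, 200 and 178 in N1, N2 and N3, and 203, 481 and 135 in P1, P2 and P3. P2 alone was far above the other 5 libraries, and P3 lay below N2 and N3. The means were 273 ± 183 (SD, n = 3) and 164 ± 44.0 (SD, n = 3), with a log2 fold change fitted to the reads of 0.74 ± 0.39 (SE) and, in the authors' deposited table, an adjusted p that was 0.751. Without P2 the log2 ratio of the Aldh1a2 means was 0.04, against 0.73 with it. P2 was 2.85 times the mean of P1 and P3 for Aldh1a2, and 2.22 times for the summed meningeal fibroblast markers. Aldh1a3, which was not among the 9 genes, had between 7.91 and 16.1 normalized counts, too few for more than a rough level.

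All 16 meningeal fibroblast markers were positive, with a median log2 fold change of 0.87. Of them, 5 had an adjusted p under 0.05 in the authors' deposited table, against 0.328% of all tested genes. The list was chosen with earlier results of these data known, so these counts are a description. Fmod, a collagen-binding proteoglycan gene, had normalized counts of 65.3, 89.9 and 115 in N1 to N3, and 242, 655 and 212 in P1 to P3. Slc6a13, a transporter gene of the meninges, had 102, 88.3 and 95.5 on the negative side and 206, 309 and 128 on the positive side. The sides of both were apart, as for 4 of the 12 resolved meningeal markers, while the other 8 overlapped as Aldh1a2 did. Of the genes with a mean of 20 to 60, 15.5% had sides apart, and 8.52% were so with the positive side higher. The positive over negative ratio of the summed markers was 1.99, and 1.41 without P2. For choroid plexus these ratios were 2.29 and 1.27. The ratios without P2 keep N2, the highest negative-side library in both sums. The part of these cells in the Aldh1a2 values was not tested.

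Markers of tissue beside the hippocampus were also examined. The 4 resolved markers of cortical layers, of 8, summed to 242, 417 and 232 in N1 to N3 and to 855, 681 and 467 in P1 to P3. The sums of the sides did not overlap, and the positive over negative ratio was 2.25, or 2.23 without P2. Ccn2, a gene of the deepest cortical layer, alone was at 135, 205 and 122 against 576, 482 and 298. Ccn2 was the largest part of the sum in every library, so the sums mainly follow Ccn2. Of the 4, Ccn2 was the one whose sides did not overlap, as for Rbp4, while Nxph4, Foxp2 and Rspo1 overlapped. Fitted to the reads, the log2 fold change was 1.55 ± 0.28 (SE) for Ccn2 and 1.10 ± 0.39 for Nxph4. It was 0.59 ± 0.46 (SE) for Foxp2 and −0.03 ± 0.35 for Rspo1. The sums therefore do not show a difference shared by the 4 markers. Whether tissue outside the hippocampus has a part in the Rbp4 difference was not tested. Of the 8 cortical markers, 7 were positive and 2 had an adjusted p under 0.05 in the authors' deposited table (Ccn2 and Cplx3), against 0.328% of tested genes. An unadjusted p under 0.05 was reached by 4 of them, all positive. The cortical, ependymal and hippocampal lists were also chosen with earlier results known, so their counts are a description. Ependymal markers went the other way, with all 8 negative and 0 past an adjusted p of 0.05 (4 had an unadjusted p under 0.05). Of the hippocampal neuron markers 6 of 8 were negative, 3 of these at an unadjusted p under 0.05, Spink8 having the smallest (0.0154). Of all tested genes, 2.89% were negative and 3.92% positive at that threshold in the authors' deposited table.

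Cyp26b1 encodes the main retinoic acid degrading enzyme of the brain. Its normalized counts were 174, 141 and 245 in N1, N2 and N3, and 137, 256 and 111 in P1, P2 and P3. P2 was the highest library and P3 the lowest, so that the positive side enclosed the negative side. The log2 fold change fitted to the reads was −0.14 ± 0.33 (SE), and the log2 ratio of the means was −0.59 without P2. Its adjusted p in the authors' deposited table was 0.986. P2 was the highest of the 6 libraries for 6 of the 7 resolved genes, Stra6 being the exception. It was so for 29.3% of genes with a mean of 20 to 60, a range that holds only Crabp2 of the 7.

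By level per kilobase of exon, the 9 genes ran from Ttr (27897 normalized counts) through Aldh1a1 (205), Rbp4 (132) and Aldh1a2 (96.7) to Rdh5 (71.1) and Rdh10 (71.0), and then to Crabp2 (44.7), Stra6 (37.1) and Cyp26b1 (33.1). The exon lengths come from GENCODE and may differ from those the authors counted. The spread of Ttr and Aldh1a1 over the libraries is not known. From Rbp4 down, the neighbours differ by less than the range of their own libraries.

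**Figure D4:**
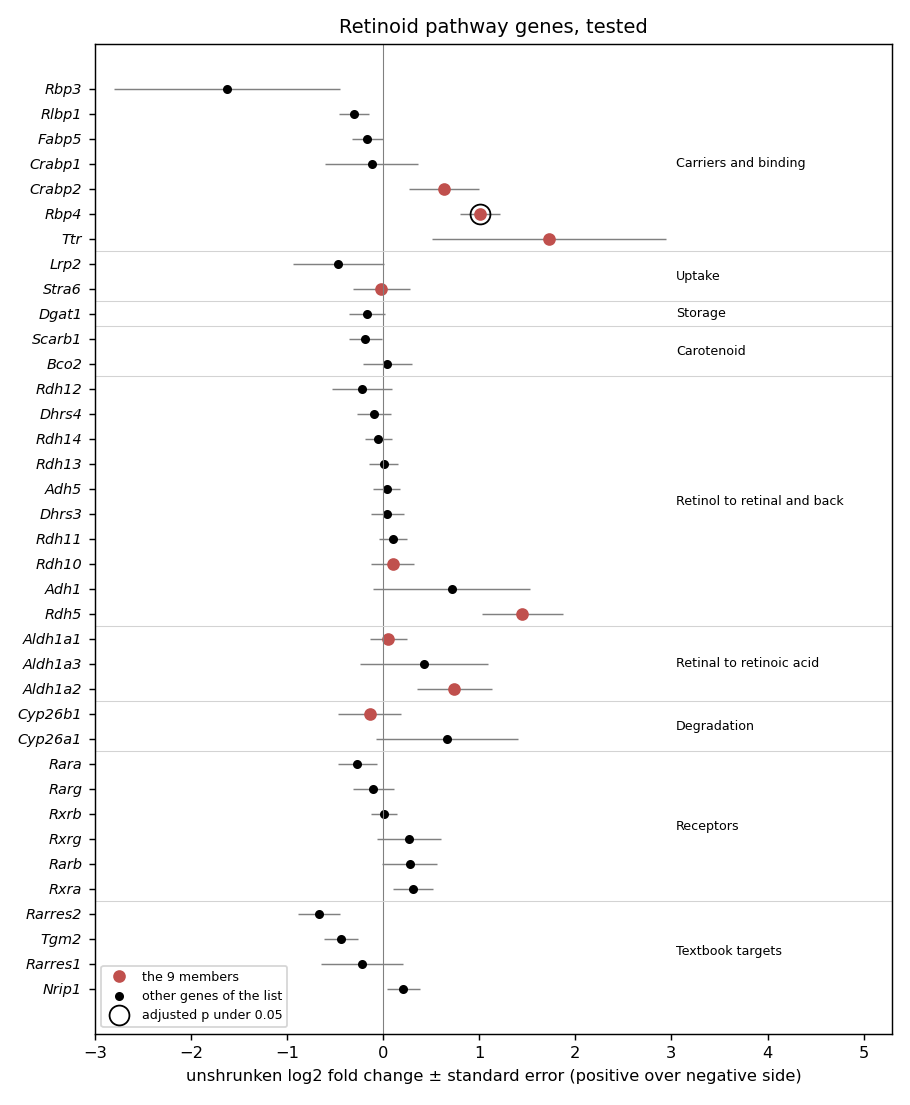
Points are the unshrunken log2 fold changes (x axis, positive over negative side) of the 38 tested genes of the retinoid list except 1 that is not reported here, with bars of 1 standard error, fitted to reads where these were resolved and worked back from the deposited values elsewhere. Genes are grouped by role, filled large points are the 9 genes described here and the ring marks Rbp4, the gene with an adjusted p under 0.05.

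Around these 9 genes, a list of 47 other genes of retinoid binding, uptake, storage, metabolism and response, chosen with earlier results known, was examined. Of these, 2 were at 0 (Rdh8 and Hoxb1) and 29 were tested. Among the 29, 14 were positive and 15 negative, and 0 had an adjusted p under 0.05 in the authors' deposited table. At an unadjusted p under 0.05 there were 3, all negative, where 2.89% of all tested genes were negative at that threshold. They were Rarres2, a chemerin gene induced by retinoids (log2 fold change −0.67 ± 0.22 SE, unadjusted p = 0.00201 in the authors' deposited table), Tgm2, a transglutaminase gene and classical retinoic acid target (−0.44 ± 0.18 SE, unadjusted p = 0.0125 in the same), and Rlbp1, a retinal binding protein gene (−0.30 ± 0.15 SE, unadjusted p = 0.0473 in the same). Rarres2 was also among the 8 ependymal markers, all of which were negative. The median log2 fold change of the 29 was −0.05, against 0.63 for the 9 genes and 0.00 for all tested genes. The median of the 9 genes, which were picked with results known, is the value of Crabp2. With a prior set 0.5 times as wide as the fitted one, the median was 0.16, again the value of Crabp2. With one set 2 times as wide it was 0.00129, the value of Rdh10 and about its deposited shrunken value. The log2 ratio of Crabp2 was 0.35 without P2.

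The nuclear receptors for retinoic acid were expressed and none of the 6 had an adjusted p under 0.05 in the authors' deposited table. The log2 fold changes were −0.27 ± 0.20 (SE) for Rara, 0.28 ± 0.29 for Rarb and −0.10 ± 0.21 for Rarg. For the partner receptors they were 0.31 ± 0.21 (SE) for Rxra, 0.01 ± 0.13 for Rxrb and 0.27 ± 0.33 for Rxrg. Rarb, itself a classical target of retinoic acid, had normalized counts of 120, 110 and 95.5 in N1 to N3 and 91.9, 174 and 130 in P1 to P3, which overlapped. Among the other genes of the list with the smallest p, Rbp3, at a mean of 6.38, and Nrip1, at a mean of 835, had unadjusted p-values of 0.166 and 0.229 in the authors' deposited table. Of the 14 resolved genes of this list, 1 (Adh1, under 10 normalized counts in each library) had sides that did not overlap, and P2 was the highest library in 3. Among genes with a mean of 20 to 60 these shares were 15.5% and 29.3%.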

How the data were processed

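Stranded mRNA libraries of 6 hippocampus samples, 3 per treatment, were sequenced as 150 bp paired-end reads, per the labels' protocols. These also name fastp 0.20.0 for trimming, HISAT2 2.1.0 for alignment and featureCounts 2.0.1 for counting. The submitters' processing notes list DESeq2 1.28.0. Genome build, annotation and strand setting: not given in the sources used here.

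The deposited workbook has 2 sheets with identical values, of which 1 was used. Its mean is a signal, counts divided by size factors and averaged over 6 libraries, by the deposited header and the values; the means sum to 25011700. The deposited log2 fold change and error had been pulled toward 0 by the authors, to judge from the values. The p-value and adjusted p-value are the authors' own. The quasi-likelihood test planned for counts per sample was replaced by the deposited adjusted p at 0.05, the fallback listed with it. Blank adjusted p-values (means under 5.67) count as not tested.

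Reads per library were recovered from the mean as whole-number combinations of 6 steps, for means up to 320. Where several combinations shared a mean, as for all resolved members but Crabp2, the deposited statistics were used to choose among them. These statistics were predicted with a negative binomial model (dispersion trend, Cauchy prior of scale 0.0357 on the log2 scale). The model was calibrated on 138 genes with a mean of 6 to 30. The prior scale was matched to the deposited errors of those with small fold changes. Sides were set by the sign of the fold change. The recovery was tested on simulated data made with this model, which checks that the reads are unique and not the model. For Ttr, Aldh1a1 and other unresolved genes the unshrunken fold change was worked back from the deposited value, error and p with the same prior. For 57 genes with both, the 2 estimates differed by a median of 0.00193 and at most 0.36 on the log2 scale. Log2 ratios of side means used a pseudocount of 0.5.

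The 9 genes and the lists were chosen with earlier results of these data known. Named genes are the 9, all retinoic acid receptors, up to 6 more of the retinoid list and 4 per marker list by smallest p, and markers whose reads are given. Of these, 1 is not reported here. Software was numpy 2.4.6, numba 0.67.0, pandas 2.3.3, matplotlib 3.10.9 and scipy 1.17.1 under Python 3.11.15. Alternatives are in the closing section.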

Additional observations from a re-analysis of the deposited data

How the results depend on the processing

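Rbp4 kept an adjusted p under 0.05 with z divided by its SD over all genes (0.0174), with adjustment over every gene with a p, and with a minimum mean of 20. At an adjusted p under 0.1, 2 of the 9 genes and 2 of the wider list of 56 passed (Rbp4 and Rdh5), against 1 each at 0.05. Over the whole table, 61 genes passed, against 116 at 0.1, 23 with a 2-fold minimum and 19 with z divided by its SD. The median log2 fold change of the 9 genes was 0.63 worked back, 0.00129 as deposited after shrinkage, 0.00129 with a prior 2 times as wide and 0.16 with a prior 0.5 times as wide. Fold changes fitted to reads use no prior, although it entered the choice of the reads where several sets shared a mean. The Ttr value rests on it, at 0.43 with the narrow prior and 0.000741 with the wide one, widths that were set and not fitted. For fold changes shrunken to near 0, the wide prior returned about the shrunken value, so it gave no usable unshrunken value. Leaving out each library in turn, the log2 ratio ran from 0.85 to 1.95 for Rdh5, 0.04 to 1.05 for Aldh1a2, 0.35 to 0.88 for Crabp2, −0.11 to 0.25 for Rdh10, −0.59 to 0.09 for Cyp26b1 and −0.27 to 0.21 for Stra6. The comparison of marker sums without P2 was chosen after seeing the data. No paired analysis was possible because the labels give the groups no shared replicate numbers and the libraries cannot be tied to sample names. P3 and N3 are the shallowest libraries.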
